A study of Mus musculus with 3 samples.

Results

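The receptor KIT and the adaptors, ubiquitin ligases and phosphatases that carry or restrain its signal were followed in mast cell progenitors (MCps) with and without p85α. The 10 genes are *Kit*, *Gab2*, *Grb2*, *Shc1*, *Sos1*, *Cbl*, *Cblb*, *Ptpn11*, *Ptpn6* and *Sh2b3*. They were chosen by name, as every probe that the array's own annotation assigns to them, with Lnk taken as the older name of *Sh2b3*. This gave 10 of the 27962 gene names and 18 of the 41174 probes on the array, and all 18 probes were tested.

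KIT is the receptor tyrosine kinase for stem cell factor (SCF). When SCF binds, KIT molecules pair, phosphorylate each other on tyrosines and recruit proteins with SH2 domains, among them p85α, the regulatory subunit of class IA PI3-kinase. SHC1 and GRB2 link the receptor to SOS1, which activates RAS, and GAB2 is a scaffold that gathers p85α and the phosphatase SHP2 (*Ptpn11*). CBL and CBLB mark active receptors with ubiquitin for degradation, the phosphatase SHP1 (*Ptpn6*) removes phosphate from them, and the adaptor LNK (*Sh2b3*) restrains them. Mast cells need KIT for growth and survival, and most keep it on their surface throughout life.

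The RNA came from 3 WT and 3 p85α-/- cultures, each of 1 mouse, after a final 48 hours with SCF at 100 ng/mL. The cells in them had been picked by flow cytometry for both KIT and the IgE receptor, out of low density marrow cells that had spent 7 days in IL-3 at 10 ng/mL. The ages of the mice are not given in the sources used here. Each of 3 two-colour Agilent arrays held 1 WT culture in Cy3 (green) and 1 p85α-/- culture in Cy5 (red), so n = 3 cultures per genotype, and genotype and dye cannot be told apart at any probe. Few cells were sorted, and their cDNA was amplified by PCR before labeling. Both genotypes had been selected on KIT protein and had received SCF, so the arrays compare mRNA between sorted cultures and hold no response to SCF.

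Each value is a log2 intensity after background correction and quantile normalization of the 6 channels, and each difference is a log2 ratio, p85α-/- divided by WT within 1 array, where a value of 1 is a doubling. Median spot signals were 71.5 to 141.2 for WT and 206.6 to 517.3 for p85α-/-, and the share of spots well above background ran from 69.4% to 93.8%. Across the 41157 probes tested, ratios of different arrays were nearly unrelated (r between −0.028 and 0.172 across probes, which are not replicates). *Pik3r1*, which encodes p85α as well as p55α and p50α, had 4 probes with mean log2 ratios of 0.59, 0.32, −0.04 and −0.58, and its brightest probe had 1.48, −0.03 and 0.33 on arrays 1 to 3. The probe with the lowest mean had −1.04, −0.31 and −0.38, below 0 throughout. All p85α-/- values of that probe lay below all WT values, as they did for 5.94% of all probes. The probes differ in direction, so *Pik3r1* mRNA on these arrays is no check of the labels. Of 13 mast cell markers, 11 were well above background on every array in WT and 12 in p85α-/-.

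A probe is said here to have passed both criteria where it differed at least 1.5-fold with an unadjusted p under 0.05 by limma's moderated test. The study names the same thresholds. No probe of the array had an adjusted p under 0.05 (0% of 41157), by limma's test, and 1829 had an unadjusted p under 0.05. Both criteria were passed upwards by 2.78% of all probes and downwards by 1.66%. Among the 18 probes of the KIT set, 2 passed upwards, 1 of *Kit* and 1 of *Ptpn6*, and 0 passed downwards. Taking the brightest probe of each gene, 1 of 10 genes passed. The remaining 9 genes had means smaller than the spread between arrays.

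*Kit* was higher in the p85α-/- culture on all 3 arrays. Its normalized log2 intensity was 10.10, 8.07 and 8.58 in WT and 11.55, 10.26 and 11.11 in p85α-/- on arrays 1, 2 and 3. All p85α-/- values lay above all WT values, as they did for 4.54% of all probes, but the lowest p85α-/- culture (10.26, array 2) and the highest WT culture (10.10, array 1) nearly met. Within each genotype the order of the cultures was the same, array 2 lowest and array 1 highest. The ratio on the 3 arrays corresponded to 2.73-fold, 4.58-fold and 5.80-fold, and the mean log2 ratio was 2.06 ± 0.56 (SD, n = 3), or 4.17-fold. By limma's test the 95% confidence interval was 1.12 to 2.99 and the adjusted p 0.784, and the median over all probes was −0.05. Median centring of the ratios, without the quantile step, gave 3.03 for *Kit*.

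The *Kit* probe was printed 10 times on each array, on chromosome 5 from 75074515 to 75074574 (plus strand; the array's annotation gives all positions here without naming a build). These spots share 1 labeled cDNA and show how exactly a single array read it. No spot was an outlier. Before normalization, WT spots read 358.4 to 502.1 on array 1, 79.2 to 102.2 on array 2 and 231.9 to 310.2 on array 3. The p85α-/- spots of the same arrays read 6618 to 9254, 1882 to 2940 and 3625 to 4987. The local background had a median of 32.5 to 33.5 for WT and 51 for p85α-/-. The log2 ratio varied between spots by an SD of 0.072, 0.176 and 0.051 on arrays 1, 2 and 3, less than the SD of 0.556 between arrays. The lowest spot ratio on any array was 1.28 and the highest 2.61. The spread of the *Kit* ratio therefore lay mostly between the arrays and not within them.

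**Figure D1:**
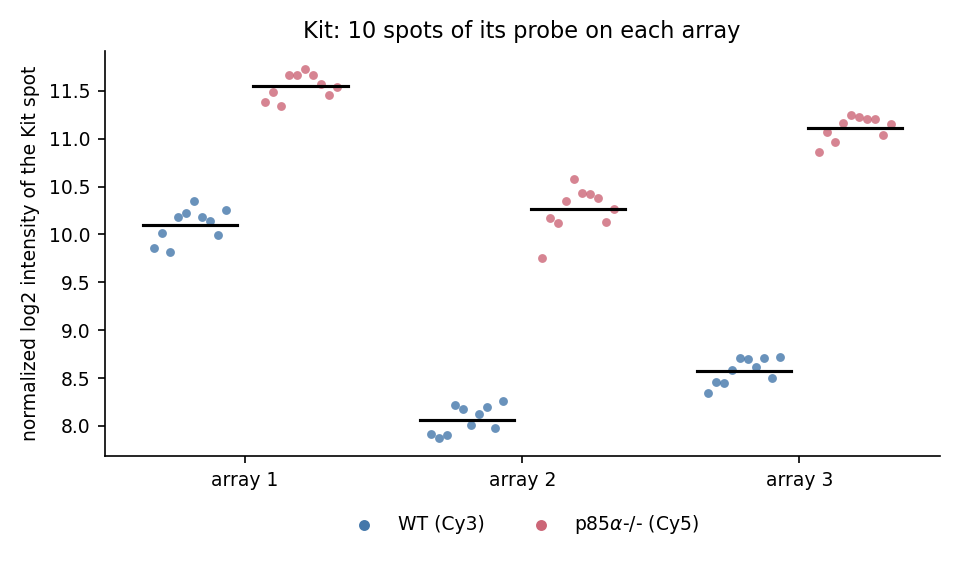
Normalized log2 intensity of each of the 10 spots of the *Kit* probe on the 3 arrays, WT (blue, Cy3) and p85α-/- (red, Cy5), with horizontal lines at the means. On each array the p85α-/- spots lie above all WT spots, by mean log2 ratios of 1.45, 2.19 and 2.54.

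Because the cells are a sorted bulk population, more cells of a type and more RNA per cell cannot be told apart. Of the 13 mast cell markers, 10 had a mean log2 ratio above 0, 5 were higher on every array (12.5% of all probes were) and 2 passed both criteria upwards (2.78% of all probes did). These were *Fcer1g*, the shared signalling chain of Fc receptors, and *Cma1*, a chymase. A second *Fcer1g* probe also passed (mean 1.89), whereas a second *Cma1* probe, with −0.01, 4.32 and −0.40, did not pass. *Fcer1a*, a chain of the IgE receptor, had ratios of −2.99, 3.32 and 1.39 and did not pass. Summed over the 13 markers, intensity was 39340 to 68860 in WT and 103800 to 169100 in p85α-/-. On array 1 most of the p85α-/- sum came from *Cma1* (log2 intensity 16.65), and the marker with the lowest mean, *Mcpt4*, had ratios of 1.85, −2.11 and −2.41. Summed neutrophil marker intensity was 9641 to 20230 in WT and 70580, 7789 and 234800 in p85α-/- on arrays 1 to 3. Much of the sum on arrays 1 and 3 came from *Mpo*, the neutrophil myeloperoxidase, with log2 intensities of 15.48, 10.68 and 17.59 in p85α-/-. Its ratio averaged 1.64 ± 4.52 (SD, n = 3) and did not pass. Of the 10 neutrophil markers, 7 had a mean above 0. On every array 4 were higher (12.5% of all probes were), and 2 passed both criteria upwards (2.78% of all probes did). The part that either group of genes has in the *Kit* result was not tested.

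The adaptors that link KIT to RAS did not move together. *Shc1*, which binds active receptors and recruits GRB2, has 1 probe (chromosome 3, 89556207 to 89556266). Its log2 intensity was 7.67, 8.13 and 7.70 in WT and 12.00, 9.06 and 7.62 in p85α-/-. WT cultures were close to each other, whereas the p85α-/- cultures differed widely, with that of array 1 highest. The ratios were 4.33, 0.93 and −0.08 on the log2 scale and averaged 1.72 ± 2.31 (SD, n = 3; limma adjusted p 0.908). Array 1 decided this mean, which was 0.42 without it.

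*Grb2*, the adaptor that holds SOS1, has probes on chromosome 11 at 115753248 to 115753307 and 115753159 to 115753203, which start 89 bases apart. The brighter one read 11.26, 9.70 and 9.93 in WT and 9.64, 10.88 and 9.56 in p85α-/-, with log2 ratios of −1.63, 1.19 and −0.365. The other, with WT well above background on 2 of 3 arrays, gave −1.22, 0.65 and 1.24. Both probes were lower in p85α-/- on array 1 and higher on array 2, and they parted on array 3. Their means, −0.27 ± 1.41 and 0.22 ± 1.28 (SD, n = 3), were small beside the spread.

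*Sos1*, the exchange factor that loads RAS with GTP, read 7.36, 7.28 and 7.93 in WT and 7.24, 7.82 and 7.18 in p85α-/- (1 probe, chromosome 17, 78693560 to 78693619). The groups overlapped, and the mean log2 ratio was −0.11 ± 0.64 (SD, n = 3). Its 95% confidence interval ran from 0.459-fold to 1.87-fold. *Gab2*, the scaffold for p85α and SHP2, had the lowest SD between arrays of the 18 probes. It read 8.11, 8.12 and 8.11 in WT and 7.74, 8.05 and 8.20 in p85α-/-, with a mean log2 ratio of −0.11 ± 0.23 and an interval of −0.82 to 0.59. Its probe is annotated to a span of 660 bases on chromosome 7 (93335704 to 93336363), whereas most probes of the set are annotated to 60.

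**Figure D2:**
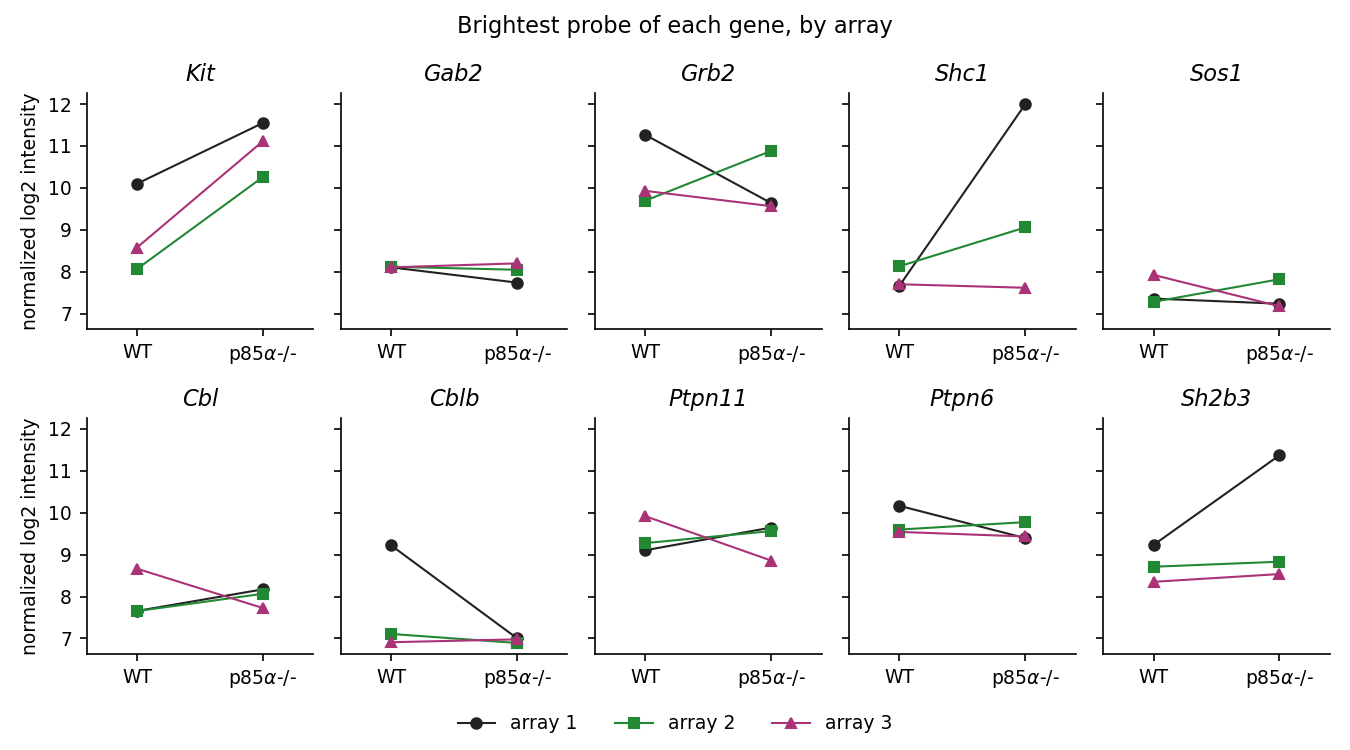
Normalized log2 intensity of the brightest probe of each of the 10 genes in WT and p85α-/- cultures, with a line joining the 2 cultures of an array. *Kit* is higher in p85α-/- on all 3 arrays, *Gab2* lies nearly level, and *Shc1* and *Sh2b3* have their steepest line on array 1.

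Neither ubiquitin ligase had a probe that passed both criteria. The brighter *Cbl* probe (chromosome 9, 44088130 to 44088189) read 7.66, 7.65 and 8.66 in WT and 8.17, 8.07 and 7.73 in p85α-/-. It was higher in p85α-/- on arrays 1 and 2 and lower on array 3, so the mean log2 ratio was −0.003 ± 0.81 (SD, n = 3). The second *Cbl* probe was well above background on 1 of 3 arrays in each genotype and had a mean of −0.27 ± 0.68. The brighter *Cblb* probe (chromosome 16, 51952278 to 51952337) read 9.22, 7.11 and 6.91 in WT and 7.00, 6.89 and 6.98 in p85α-/-. WT was well above background on 2 of 3 arrays. The WT culture of array 1 stood apart from all other cultures, and the mean of −0.79 ± 1.24 was −0.07 without that array. The other *Cblb* probe, 69360 bases upstream along the gene, had a mean of −0.02 ± 0.29. The lower mean of *Cblb* thus rested on 1 probe on 1 array.

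The 2 SH2 phosphatases have 3 probes each, and these disagreed. For *Ptpn6*, which encodes SHP1, the 3 probes lie along chromosome 6, and the mean log2 ratio was higher the nearer the probe lay to the 3′ end. The upstream and brightest probe (124757986 to 124758045) read 10.16, 9.60 and 9.54 in WT and 9.39, 9.77 and 9.43 in p85α-/-, with a mean log2 ratio of −0.23 ± 0.49 (SD, n = 3). The middle probe had 0.19 ± 0.30, with WT well above background on 2 of 3 arrays. The probe nearest the 3′ end (124746101 to 124746160), 11885 bases further on, read 8.72, 8.05 and 10.33 in WT and 9.44, 9.70 and 11.33 in p85α-/-. On each array the p85α-/- culture was higher at this probe, by 0.72, 1.65 and 0.99, although the groups overlapped because WT on array 3 was bright. The mean was 1.12 ± 0.47, a 2.17-fold difference (limma adjusted p 0.908). This probe passed both criteria, but no longer did so with any 1 array left out (0.86 to 1.32), nor by tests without limma's shared spread, paired or unpaired, nor with the scanner software's processed signals, nor without pairing cultures by array. It still passed with loess normalization (1.15), median centring (1.92), no background subtraction (1.24) and the software's log ratio (1.30). The same held with dim probes left out or outlier spots kept. With 3 points along 1 gene, the order of the ratios is a description.

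For *Ptpn11*, which encodes SHP2 and unlike SHP1 promotes RAS signalling, the brightest probe (chromosome 5, 120364562 to 120364621) read 9.10, 9.27 and 9.92 in WT and 9.64, 9.56 and 8.86 in p85α-/-. Its mean log2 ratio was −0.08 ± 0.86 (SD, n = 3). A second probe, annotated to a span of 4478 bases, was higher in p85α-/- on every array, by 2.54, 0.73 and 0.28. Its WT signal was well above background on 2 of 3 arrays, and the mean of 1.18 ± 1.19 did not pass. This was the one *Ptpn11* probe with the same sign on all arrays. The third, nearest the 5′ end, gave −0.10, −3.90 and 0.68 because WT on array 2 read 12.88, against 7.20 and 7.39 in the other WT cultures. The means of the 3 probes thus ran from −1.11 to 1.18, wider than the range between arrays at the brightest of them.

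*Sh2b3*, the inhibitory adaptor LNK, was higher in p85α-/- on every array at its brighter probe (chromosome 5, 121052509 to 121052568). That probe read 9.23, 8.71 and 8.35 in WT and 11.37, 8.83 and 8.54 in p85α-/-. The difference was 2.14 on array 1 but 0.12 and 0.18 on the others, and the mean of 0.81 ± 1.15 (SD, n = 3) fell to 0.15 without array 1. The other probe, 2431 bases further towards the 3′ end, gave −0.12, 1.03 and −2.66, with a mean of −0.58 ± 1.89.

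**Figure D3:**
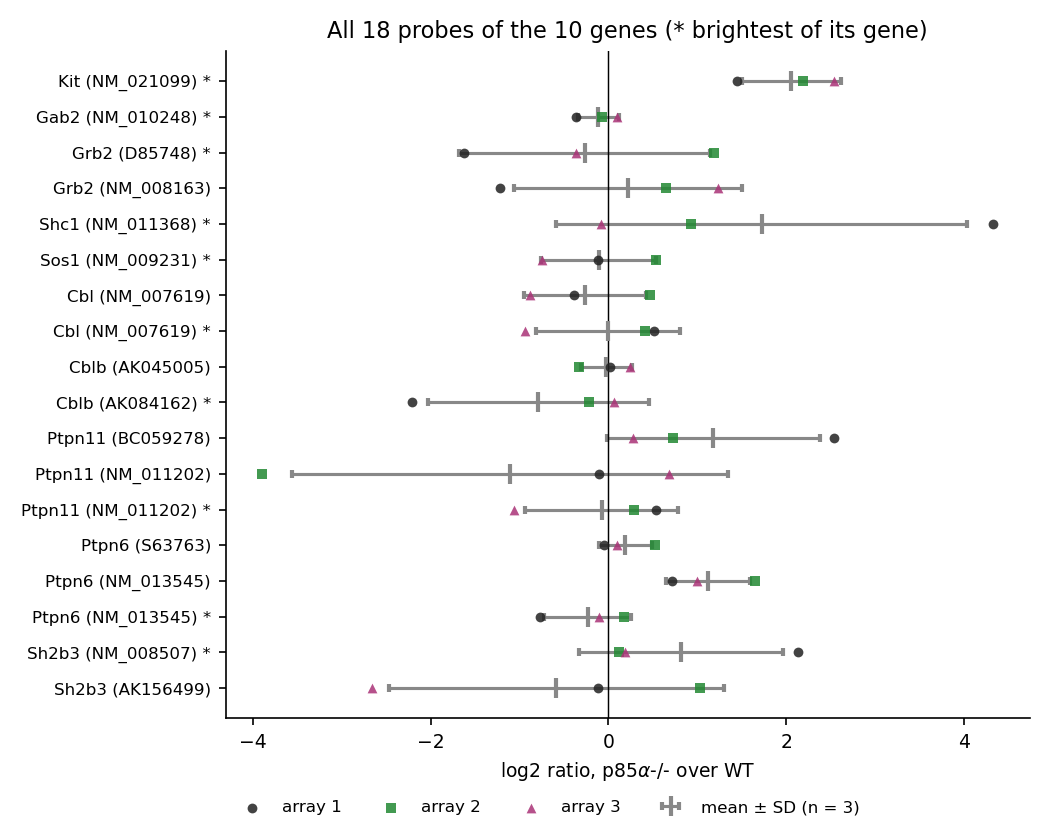
Log2 ratio of p85α-/- over WT for all 18 probes, with 1 point per array and the mean ± SD (n = 3) in grey, and the transcript that the array's annotation names in brackets. The *Kit* points lie between 1.45 and 2.54, whereas most probes have points on both sides of 0.

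Over the whole set, 4 of 18 probes were higher in p85α-/- on all 3 arrays, where 12.5% of all probes were, and 0 were lower on all 3, where 13.3% were. WT and p85α-/- values did not overlap at 1 probe, *Kit*, with p85α-/- above WT, and at 0 probes with it below (5.94% of all probes). The mean exceeded its own SD at 2 of 18 probes, a count that was not made over all probes. The SD between arrays ran from 0.23 to 2.45 with a median of 0.84, against 0.67 for all probes. Of the 6 genes with several probes, 4 had probe means on both sides of 0, and *Cbl* and *Cblb* had all theirs below it. The median log2 ratio over the 10 brightest probes was −0.09, against −0.05 for all probes. By sign, 3 of the 10 genes lay above 0 and 7 below, but after median centring 8 lay above 0, so the direction of the small differences depended on the scaling. *Kit* kept its sign and passed both criteria in 14 of 14 alternative settings.

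**Figure D4:**
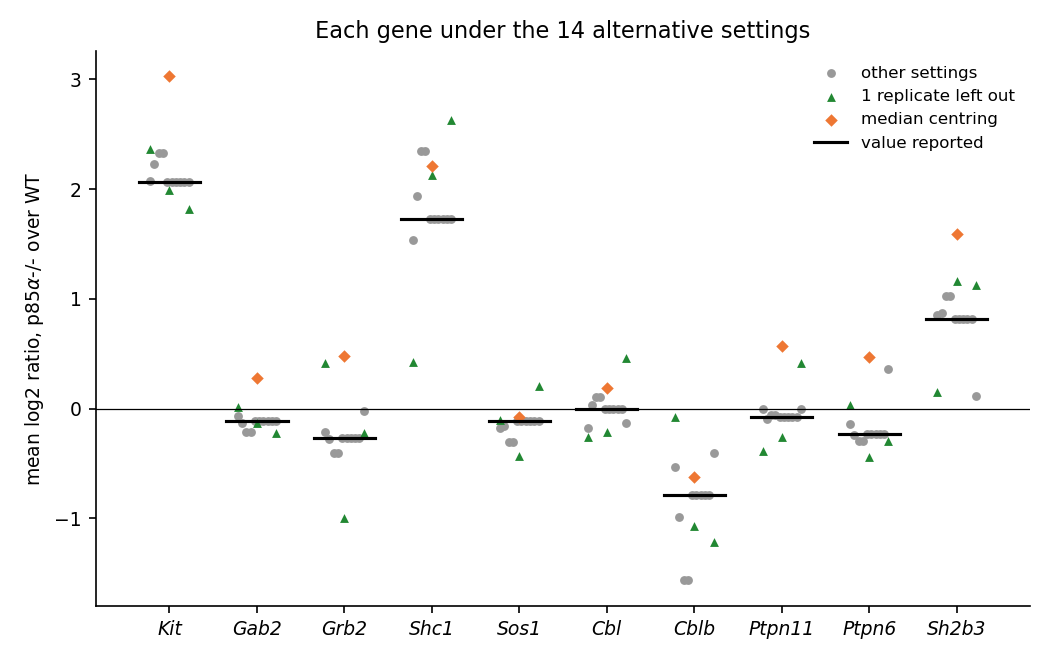
Mean log2 ratio of each gene as reported (black line) and under each of 14 alternative settings (points). *Kit* ran from 1.82 to 3.03, while *Gab2*, *Grb2*, *Sos1*, *Cbl*, *Ptpn11* and *Ptpn6* have points on both sides of 0.

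Other genes of the KIT pathway were taken from a list of 38, of which 37 were found by name. By their brightest probes, 18 had a mean log2 ratio above 0 and 19 below, with a median of −0.03. Both criteria were passed upwards by 2 of 37 (5.41%, against 2.78% of all probes) and downwards by 0 (against 1.66%). *Spred1*, an inhibitor of RAS and RAF signalling downstream of KIT, read 9.33, 8.32 and 7.77 in WT and 12.65, 11.47 and 11.85 in p85α-/-. It was higher on every array, by 3.32, 3.15 and 4.08, and averaged 3.52 ± 0.49 (SD, n = 3; limma adjusted p 0.763). Its other probes, with means of 2.43 ± 2.23 and 1.60 ± 2.29, did not pass and read −0.11 and −0.16 on array 3. *Btk*, a cytoplasmic tyrosine kinase that depends on PI3-kinase products, read 11.68, 8.44 and 11.65 in WT and 14.40, 12.28 and 13.95 in p85α-/-. Its ratios were 2.72, 3.84 and 2.31, and averaged 2.95 ± 0.79 (limma adjusted p 0.763).

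The ligand itself, *Kitl*, is made chiefly by stromal cells and was given to the cultures as protein. Its brightest probe gave ratios of −0.62, −0.37 and −0.13 (mean −0.37 ± 0.25, SD, n = 3), which did not pass. The other had a mean of −0.003 but was well above background on 0 of 3 arrays in each genotype. Relatives of the adaptors above did not pass either, *Sos2* with a mean of 1.23 ± 1.07 and *Gab1* with 0.09 ± 0.37. *Crkl*, an SH2 adaptor, had the lowest mean of the list at −1.06 ± 0.98, and its other probes had 0.87 and −1.03. Without array 2, 7 of 37 genes passed both criteria, *Sos2* among them, against 2 of 37 with all arrays. Over all probes, 3165 of 41157 passed without array 2, against 1829 of 41157 with all arrays. The WT signal of *Sos2* was well above background on 1 of 3 arrays.

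**Figure D5:**
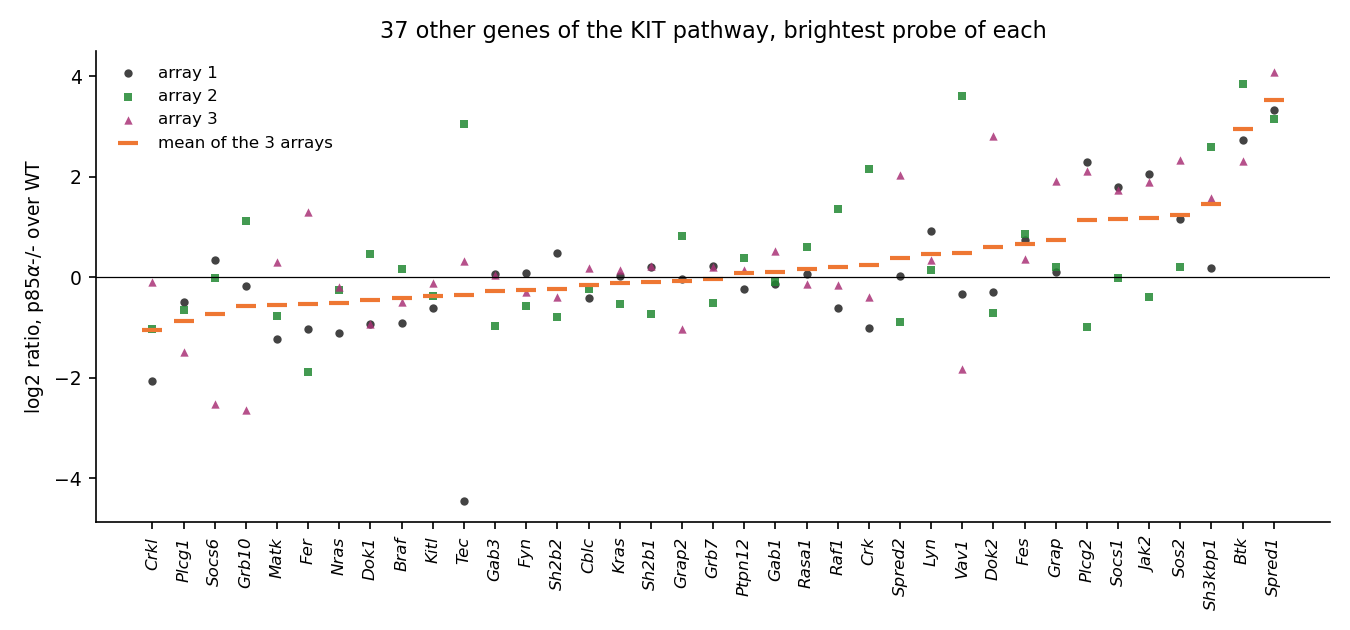
Log2 ratio of p85α-/- over WT for 37 other genes of the KIT pathway, ordered by the mean of the 3 arrays (orange), with 1 point per array. *Spred1* and *Btk*, at the right, have all 3 points above 2, and most other genes have points on both sides of 0.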

How the data were processed

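The authors deposited 1 scanner file per array from Agilent Feature Extraction 9.5.1.1, with raw intensity values (mean spot signal, median local background), processed intensity values, flags and a log10 ratio of red over green, plus a table of log10 ratios. In the latter, of 40929 probes with 1 spot, 40929, 190 and 226 on arrays 1 to 3 held their own ratio (tolerance 1.5e-05), so it was not used. The methods name quantile normalization. Whether the authors' array test was paired is not given in the sources used here, so both forms were run.

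Here mean signals were corrected by normexp (offset 50), and 6 channels quantile normalized as log2 values (R 4.3.3, limma 3.58.1). Control and outlier spots were removed and spots of a probe averaged. Ratios of p85α-/- over WT were fitted with an intercept (lmFit, eBayes, Benjamini-Hochberg over 41157 probes). The scripts were tested on simulated data. Only 3 arrays limit precision, and 0 spots were saturated. Genes, lists and tests were chosen with earlier results of these data known. All probes of the 10 genes are named, and of the KIT pathway list those past both criteria, the highest and the lowest. Of the pathway list, *Hras* was not matched by name. *Kitl*, *Sos2*, *Gab1*, *Mpo*, *Fcer1a* and the markers past both criteria were singled out after their values were seen. Alternatives changed the normalization, background, filters, test, pairing, replicates and choice of probe. WT and p85α-/- cultures are paired because they share an array.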

Additional observations from a re-analysis of the deposited data

How the results depend on the processing

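The deposited table was not run, because replicates 2 and 3 do not stand on their probes. No probe had an adjusted p under 0.05 in any of 13 settings.

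*Kit* passed both criteria in 14 of 14 settings. It ran from 1.82 to 2.37 with 1 replicate left out, and its adjusted p from 0.368 to 1 over all settings. With no replicate block, that is without pairing cultures by array, it was at 2.06, and 1809 probes passed both criteria. Median centring shifted the all-probe median from −0.05 to 0.09, raised the share of higher calls from 62.6% to 91.1% (47.5% without replicate 2), and turned *Cbl* (0.19), *Gab2* (0.28), *Grb2* (0.48), *Ptpn11* (0.57) and *Ptpn6* (0.47) above 0. *Cbl* also turned without background subtraction (0.035) and with the software's processed signals or log ratio (0.10 each), *Ptpn11* with loess (0.00013) and *Ptpn6* when its probes were averaged (0.36). With 1 replicate left out, *Cbl* ran from −0.26 to 0.46, *Gab2* from −0.22 to 0.011, *Grb2* from −0.996 to 0.41, *Ptpn11* from −0.39 to 0.41, *Ptpn6* from −0.44 to 0.034 and *Sos1* from −0.43 to 0.21. *Shc1*, *Sh2b3* and *Cblb* kept their sign throughout.

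Probes past both criteria numbered 1829. A plain unpaired t-test left 1125, a paired one 819, and leaving out 1 replicate gave 1555 to 3165, with 3165 without replicate 2. The 2 pathway genes past both criteria became 4 with loess, 6 with median centring, 4 with processed signals and 1 (*Spred1*) by the unpaired t-test. Over all probes the same settings gave 1633, 2692, 2123 and 1125, in that order, against 1829. Leaving out 1 replicate gave 3 to 7, with 7 without replicate 2. The cause of these changes was not tested. Signal over background limits 6 of the 18 probes, which were not well above it in every channel.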

Other observations

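KIT belongs to the type III receptor tyrosine kinases, and its relatives were measured on the same arrays. By brightest probe, *Flt3* had a mean log2 ratio (p85α-/- over WT) of −0.22 ± 0.60 (SD, n = 3). It was −1.01 ± 1.35 for *Csf1r*, −0.48 ± 0.64 for *Pdgfra* and −0.12 ± 0.20 for *Pdgfrb*. None of these 4 passed 1.5-fold with an unadjusted p under 0.05, and *Csf1r* and *Pdgfra* were lower on all 3 arrays, where 13.3% of all probes were. Other probes of these did not share that direction, with 0.12 and 0.05 for *Csf1r* and 0.26 for *Pdgfra*.

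The probes whose 6 normalized values followed those of *Kit* most closely, among 25562 well above background in every channel, were of *Mtpn* (Pearson's r = 0.997), *Txn1* (0.996) and *Atp5o* (0.992). The points are 6 channels of 3 arrays that share dye and genotype, so this is a description. Over the 11 probes of other genes in the set that were also well above background in every channel, r with *Kit* ran from −0.625 (*Ptpn11*) to 0.608 (*Sh2b3*).

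The macrophage list had 6 of 10 genes above 0 and 0 past both criteria. None was higher on all 3 arrays and 3 were lower on all (*Csf1r*, *Adgre1* and *Cd5l*), where 13.3% of all probes were. *Adgre1*, the macrophage antigen F4/80, had the lowest mean (−1.39 ± 1.12). All its p85α-/- values lay below all WT values, as they did for 5.94% of all probes. At its other probe, with ratios of −3.75, 0.63 and −0.36, the groups overlapped. The list had summed intensities of 4104 to 6800 in WT and 3935 to 5690 in p85α-/-. The basophil and eosinophil list had 4 of 5 above 0, the erythroid list 3 of 5 and the lymphocyte list 2 of 4, and 0 of these passed. The neutrophil list had 7 of 10 above 0, and *S100a8* (2.14 ± 1.56) and *S100a9* (2.55 ± 1.79) passed both criteria upwards, which 2.78% of all probes did.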
